A study of Mus musculus with 12 samples.

Results

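Cadherins are adhesion proteins of the cell surface, and this account follows 10 of their genes that are read in neurons: Cdh2, Cdh4, Cdh6, Cdh7, Cdh8, Cdh9, Cdh10, Cdh11, Cdh12 and Cdh13. A probe set belonged to them when the authors' deposited annotation gave it exactly 1 of these symbols. In that way 9 of the 10 genes were found, with 21 of 45037 probe sets, and Cdh12 is not analysed here. The genes were picked with earlier results of these arrays known, the difference of Cdh9 among them, so that difference is no independent support for anything said of the group. The probe set with the highest mean over the 6 arrays stood for its gene, so representatives were chosen by these mean levels, which are given only as a description. Of the 9 representatives, 8 lay above the filter on dim probe sets, a mean RMA value over 6.31 (log2), and so did 18 of the 21 probe sets. The representative of Cdh6 lay below it.

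Both groups of mice carried FLAG-tagged PABPC1, which attaches to poly(A) tails of mRNA, made in the basolateral amygdala under the promoter of fos, which neuronal activity switches on. An antibody against the tag brought down the RNA, from mice that either received footshocks (shock) or met a female mouse (female). Each group had 3 arrays (Affymetrix Mouse 430 2.0), and the 12 deposited samples hold each of the 6 arrays under both RMA and MAS5 processing. Per the design note a sample pooled 2 mice and a group had 3. On these numbers the 3 arrays of a group share mice and are not independent, and p-values measure only the spread between arrays. The sources used here give no strain, age or sex, and neither group is an unstimulated control. Because the tag was made under the fos promoter, the RNA is that of neurons which had activated it, mixed with whatever other RNA came down with the tag.

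Classical cadherins bind a cadherin on the facing cell in the presence of calcium, and their tails hold catenins, which tie the contact to actin. Type I members, here Cdh2 (N-cadherin) and Cdh4 (R-cadherin), and type II members, here Cdh6 to Cdh12, differ in the part that binds across the gap, and neurons that carry different combinations can sort and choose partners by them. Cdh13 (T-cadherin) lacks the tail and is held to the membrane by a lipid anchor, so it is a cadherin but not a classical one in structure. In mouse hippocampus Cdh9 takes part in forming specific synapses, and in mouse retina Cdh8 and Cdh9 guide axons to their layers.

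Array medians of RMA values ran from 6.92 to 6.96 (log2). Arrays correlated at 0.990 to 0.997 within groups and at 0.978 to 0.994 between them, with female replicate 2 farthest from the rest. The 3' minus 5' signal of the Gapdh control probe sets was 4.14 to 4.64 (log2) in shock and 2.52 to 3.36 in female, lowest in female replicate 2. The part of this difference in the results below was not tested, except where a covariate is named. Summed MAS5 intensities of 6 markers per cell type did not overlap between groups for 5 of 8 lists. They were 8088 to 9093 in shock and 11005 to 11154 in female for excitatory neurons, and 24129 to 27653 and 20778 to 23408 for inhibitory neurons. For oligodendrocytes they were 27619 to 30748 and 33644 to 42196, and for endothelial cells 2194 to 2620 and 2642 to 3228. For meningeal and mural cells they were 1891 to 1909 and 1921 to 2255. Astrocytes, microglia and central amygdala with striatum overlapped, and no marker was listed at 0. Among all genes tested, taken singly, groups did not overlap for 28.7% with shock above and 20.0% with female above. No such share was taken over sums. Sums follow the brightest markers, and by gene 3 of 6 excitatory markers were above 0 (1 called higher in shock, 3 in female) and 4 of 6 inhibitory ones (2 and 1). All 6 oligodendrocyte, 5 microglial and 5 central amygdala and striatum markers tested were below 0 (2, 2 and 1 called), with medians of -0.34, -0.10 and -0.66 (log2, shock minus female). Of the endothelial markers 2 of 5 were above 0 (2 called higher in female), of the meningeal and mural ones 3 of 5 (1 called) and of the astrocyte ones 4 of 6 (none called). The part of these markers in the results below was not tested. In such samples, fewer cells of a type, less RNA per cell and other RNA brought down with the tag cannot be told apart.

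Setting shock against female compares the RNA brought down with the tag after an aversive and after a rewarding stimulus. Whether the same neurons carried the tag in both groups was not tested. Among the cadherins, 4 genes were higher in shock: Cdh9 by 1.90-fold, Cdh8 by 1.60-fold, Cdh7 by 1.40-fold and Cdh4 by 1.27-fold. No representative was higher in female (limma, adjusted p under 0.05 over all 27022 probe sets tested), although Cdh13 had an unadjusted p under 0.05 in that direction, 1 gene of 8. Among 13203 genes tested, shock was higher for 10.6% and female for 9.40%, against 4 and 0 of the 8 cadherins. The cadherins were picked with earlier results of these arrays known, Cdh9 among them. The counts and medians given here therefore describe them and are no test of the group. The groups did not overlap for 6 cadherins with shock above and for 1 with female above, against 28.7% and 20.0% of all genes tested. The median difference of the 8 was 0.43 (log2, shock minus female), and 0.06 over all genes tested. Without female replicate 2 these medians were 0.27 and 0.03. The count of 4 was 0, 2 and 1 without shock replicates 1, 2 and 3. Over all probe sets tested, the count of 5614 was then 321, 1562 and 1312. Without female replicates 1, 2 and 3 the cadherin count was 5, 3 and 3, and that over all probe sets 6756, 5561 and 3628. The cadherin count was 0 on MAS5 values with either pseudocount and 0 with a covariate for the 5' to 3' signal (limma; 3, 3 and 2 of the 8 had an unadjusted p under 0.05 towards shock). Over all probe sets, MAS5 values gave 543 and 277 calls (pseudocounts of 16 and 1) and the covariate gave 1.

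**Figure D1:**
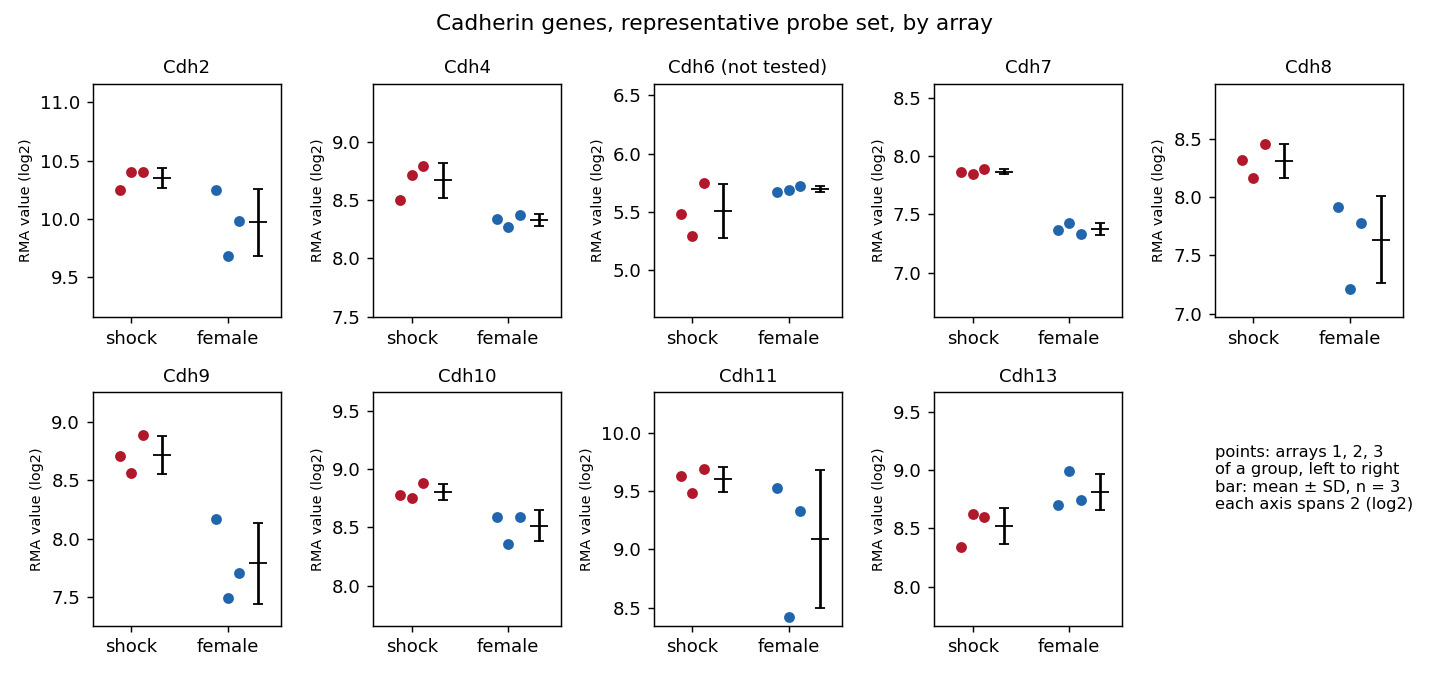
RMA value (log2) of the representative probe set of each of 9 cadherin genes in the 3 shock and 3 female arrays, with the mean ± SD beside the points and every axis spanning the same range. Cdh4, Cdh7, Cdh8 and Cdh9 show all shock arrays above all female arrays, as Cdh2 narrowly and Cdh10 do, whereas Cdh13 shows the opposite order.

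Cdh9 had the largest difference among the cadherins tested. The RMA values of its only probe set, 1427618_at, were 8.71, 8.56 and 8.89 (log2) in shock replicates 1 to 3 and 8.17, 7.49 and 7.71 in female replicates 1 to 3. Every shock array lay above every female array, and the female arrays were the more widely spread. The means were 8.72 ± 0.17 in shock and 7.79 ± 0.34 in female (SD, n = 3), a difference of 0.93 ± 0.17 (standard error; limma adjusted p = 0.00952). Of all genes tested, 0.204% had a difference as high or higher. The probe set lies on chromosome 15 at positions 16855909 to 16856778, plus strand, in coordinates of the deposited table, for which the sources used here name no build. On the MAS5 scale, which is linear, intensities were 520, 542 and 711 in shock and 475, 315 and 312 in female, again without overlap, and the difference was 0.68 on log2(value + 16) with a limma adjusted p of 0.108. The call also ended without shock replicate 1, at an adjusted p of 0.0615 and a difference of 0.94. In the authors' deposited table, where a negative fold means shock above female, Cdh9 had a fold of -1.95 and an FDR of 0.163.

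Promoter windows of the cadherins are shown because Cdh9 shares a stretch of sequence with Cdh6, a neighbour of the same subfamily on chromosome 15. RefSeq windows (GRCm38.p6, 250 bases before to 50 after a transcript start) were at hand for 6 of the 10 genes, and the run of 15 bases in capitals is the longest that windows of any pair of these genes share. It ends 195 bases before the start in Cdh9 (chr15:16728665-16728964, plus strand) and 4 bases before the start in Cdh6 (chr15:13173626-13173925, minus strand).
Cdh9: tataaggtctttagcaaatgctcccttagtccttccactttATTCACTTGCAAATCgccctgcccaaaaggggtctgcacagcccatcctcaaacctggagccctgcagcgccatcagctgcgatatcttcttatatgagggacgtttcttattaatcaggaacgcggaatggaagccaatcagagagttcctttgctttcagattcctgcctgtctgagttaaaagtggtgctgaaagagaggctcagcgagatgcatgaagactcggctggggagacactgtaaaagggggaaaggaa
Cdh6: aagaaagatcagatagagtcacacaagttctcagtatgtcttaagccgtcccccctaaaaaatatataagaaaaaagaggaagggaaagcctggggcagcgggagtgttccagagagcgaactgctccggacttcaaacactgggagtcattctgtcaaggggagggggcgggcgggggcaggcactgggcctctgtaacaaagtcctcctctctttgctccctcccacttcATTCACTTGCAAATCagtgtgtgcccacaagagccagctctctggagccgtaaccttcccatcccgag
Among 32851 windows, those of Cdh6 and Cdh9 held this run on either strand and no other window did, and the longest run shared by any other pair of the cadherins was 13 bases. Whether the RNA of the pair goes together cannot be read from these arrays. Cdh6 was dim, below the filter and untested, with RMA values of 5.48, 5.29 and 5.75 in shock and 5.67, 5.69 and 5.72 in female, which overlap.

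Cdh8 was measured by 3 probe sets, and 2 of them were higher in shock. At the representative, 1455365_at (chromosome 8, positions 99028609 to 99029755, minus strand), RMA values were 8.32, 8.16 and 8.45 in shock and 7.91, 7.21 and 7.78 in female. No female array reached the lowest shock array, and female replicate 2 lay far below the other female arrays. The means were 8.31 ± 0.14 and 7.64 ± 0.38 (log2, SD, n = 3), a difference of 0.68 ± 0.17 (standard error; limma adjusted p = 0.0271). The probe set 1441690_at, which reaches 4136 bases farther towards the 3' end, had a difference of 0.63 and a limma adjusted p of 0.0314. The third, 1422052_at, whose listed alignment spans the gene and ends before both others, had a difference of 0.32, an adjusted p of 0.137 and overlapping groups. Both calls ended on leaving out any of the shock arrays, at adjusted p from 0.0617 to 0.131, and on MAS5 values, where the differences were 0.58 and 0.12 (adjusted p = 0.136 and 0.617). Without female replicate 2 they were 0.46 and 0.42, with adjusted p of 0.0146 and 0.0183.

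The promoter window of Cdh8 is shown for comparison with those of Cdh9 and Cdh6 (chr8:99416422-99416721, GRCm38.p6, minus strand), with a GC box, GGGCGG, and a half-site of the cAMP response element, TGACG, in capitals.
Cdh8: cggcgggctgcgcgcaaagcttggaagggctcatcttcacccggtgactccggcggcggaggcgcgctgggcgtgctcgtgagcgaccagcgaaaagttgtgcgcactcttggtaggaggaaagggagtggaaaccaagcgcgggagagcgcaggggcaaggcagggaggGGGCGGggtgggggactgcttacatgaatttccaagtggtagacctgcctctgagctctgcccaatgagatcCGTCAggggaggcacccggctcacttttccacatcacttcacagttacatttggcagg
The half-site, here on the opposite strand, occurs on either strand in 20.8% of all windows and the GC box in 35.7%. Among the cadherins the half-site was found in the window of Cdh8 alone, and the GC box in those of Cdh8 and Cdh6. The full element TGACGTCA (1.79% of all windows), the AP-1 site TGANTCA (7.81%) and the TATA box TATAAA (13.6%) were in no window of a cadherin. The window of Cdh8 was 62.3% G and C with 21 CpG, that of Cdh9 48.7% with 8, and the median window 52.7% with 7.

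Cdh7 had the tightest replicates of the cadherins that passed. At 1444736_at (chromosome 1, positions 110138343 to 110139191, plus strand), RMA values were 7.86, 7.85 and 7.89 in shock and 7.37, 7.43 and 7.33 in female. The gap between the groups was several times the spread within them. The difference was 0.49 ± 0.09 (standard error; limma adjusted p = 0.0114), and it stayed between 0.47 and 0.51 when any 1 array was left out. The call ended without shock replicate 1 (adjusted p = 0.061), without shock replicate 3 (0.0513) and on MAS5 values (0.35, adjusted p = 0.224). MAS5 intensities were 503, 427 and 398 in shock and 321, 384 and 326 in female, again with every shock array above. The other probe set, 1460045_at, ends 142164 bases upstream in the listed coordinates. It had a difference of 0.06 (adjusted p = 0.728) on RMA values and of -0.56 (adjusted p = 0.225) on MAS5 values.

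The type I gene Cdh4, which encodes R-cadherin, passed only just. At 1449422_at (chromosome 2, positions 179442566 to 179896406, plus strand), RMA values were 8.50, 8.71 and 8.79 in shock and 8.34, 8.27 and 8.37 in female. Shock replicate 1 lay closest to the female arrays, and the groups did not overlap. The difference was 0.34 ± 0.11 (standard error; limma adjusted p = 0.048), and the call ended on leaving out any 1 of the 6 arrays (adjusted p from 0.0555 to 0.162). It also ended with no filter on dim probe sets (0.0632) and on MAS5 values (0.26, adjusted p = 0.325). The more 3' probe set, 1456397_at, had a difference of 0.39 and an adjusted p of 0.0635, with all shock arrays above all female arrays on both scales. The remaining one, 1449637_at, was below the filter, at 6.17, 6.31 and 6.21 in shock and 6.40, 6.14 and 6.30 in female.

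Cdh2, which encodes N-cadherin, the cadherin most studied at synapses, did not pass. At its representative, 1418815_at on chromosome 18, RMA values were 10.25, 10.40 and 10.40 in shock and 10.25, 9.68 and 9.98 in female. Shock replicate 1 and female replicate 1 were almost level, so that the groups barely stood apart. The difference was 0.38 ± 0.14 (standard error; limma adjusted p = 0.0799), and 0.23 without female replicate 2. The other probe set, 1449244_at, is listed at the same positions and had a difference of -0.05 (adjusted p = 0.779), with 9.97, 9.98 and 10.23 in shock and 10.25, 9.94 and 10.14 in female.

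Cdh11, a type II cadherin also made by mesenchymal cells and osteoblasts, turned on 1 array. RMA values at 1450757_at (chromosome 8, positions 102632933 to 102785111, minus strand) were 9.63, 9.48 and 9.69 in shock and 9.53, 8.42 and 9.33 in female. Female replicate 1 lay within the shock range, and female replicate 2 lay far below everything else. The difference was 0.51 ± 0.24 (standard error; limma adjusted p = 0.139). It was 0.17 without female replicate 2, and 0.73 (adjusted p = 0.0355) when female replicate 1 was left out. In MAS5 intensity female replicate 2 was again the low one, at 610 against 1044 and 1251 in the other female arrays and 1148 to 1378 in shock.

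Cdh10, another type II cadherin of chromosome 15, had probe sets that went in opposite directions. At its representative, 1425092_at, RMA values were 8.78, 8.75 and 8.88 in shock and 8.59, 8.36 and 8.59 in female, a difference of 0.29 with a limma adjusted p of 0.0745. The groups did not overlap on this scale but did in MAS5 intensity, where the difference was 0.02. The probe set nearest the 3' end, 1446399_at, had a difference of 0.44 (adjusted p = 0.123), and 0.20 without female replicate 2. A pair of probe sets is listed at the 5' end, both at positions 18818924 to 18820035 and on opposite strands. The one on the strand opposite to the gene, 1433302_at, was higher in female, at 7.16, 6.94 and 6.96 in shock and 7.46, 7.68 and 7.20 in female. Its difference was -0.43 ± 0.13 (standard error; limma adjusted p = 0.0488), lost in 5 of 6 leave-one-out fits (adjusted p up to 0.143). It was also lost on MAS5 values (-0.44, adjusted p = 0.236), with no filter (0.0655) and with arrays centred on their medians (-0.40, adjusted p = 0.0543). The one on the strand of the gene, 1460538_at, had a difference of -0.13 (adjusted p = 0.503). What 1433302_at measures, an antisense transcript or the gene itself, was not tested.

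Cdh13, which encodes T-cadherin, was the one tested representative below 0, though it did not pass. At its representative, 1423551_at (chromosome 8, positions 118283610 to 119323813, plus strand), RMA values were 8.34, 8.62 and 8.60 in shock and 8.70, 8.99 and 8.74 in female. All female arrays lay above all shock arrays, by little. The difference was -0.29 ± 0.12 (standard error; limma adjusted p = 0.105). The probe set 1454015_a_at, listed for a shorter alignment at positions 118314412 to 118856208 that ends 468721 bases before the most 3' one, was higher in female. Its RMA values were 6.74, 6.92 and 6.67 in shock and 7.40, 7.43 and 7.30 in female, 2 narrow groups well apart. The difference was -0.60 ± 0.10 (standard error; limma adjusted p = 0.00879), the smallest adjusted p of any cadherin probe set. The call was lost in 1 of 6 leave-one-out fits, that lacking shock replicate 1 (-0.58, adjusted p = 0.0596).

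On MAS5 values 1454015_a_at was the 1 cadherin probe set of 18 that passed. Its intensities were 164, 143 and 132 in shock and 234, 286 and 254 in female, and the difference was -0.76 on log2(value + 16), with a limma adjusted p of 0.0418. With a pseudocount of 1 in place of 16 it did not pass (-0.82, adjusted p = 0.0511). With the pseudocount of 16, 543 of all 27022 probe sets tested passed, and 1.95% of all genes by their representatives. In the authors' deposited RMA table it had a fold of 1.57 and an FDR of 0.128. The probe set nearest the 3' end of Cdh13, 1434115_at, was level between the groups, at 7.54, 7.70 and 7.58 in shock and 7.55, 7.66 and 7.58 in female, a difference of 0.01 (adjusted p = 0.959). A further one, 1431824_at, listed at the same positions as 1454015_a_at, was below the filter, with RMA values between 3.97 and 4.21 on all arrays.

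**Figure D2:**
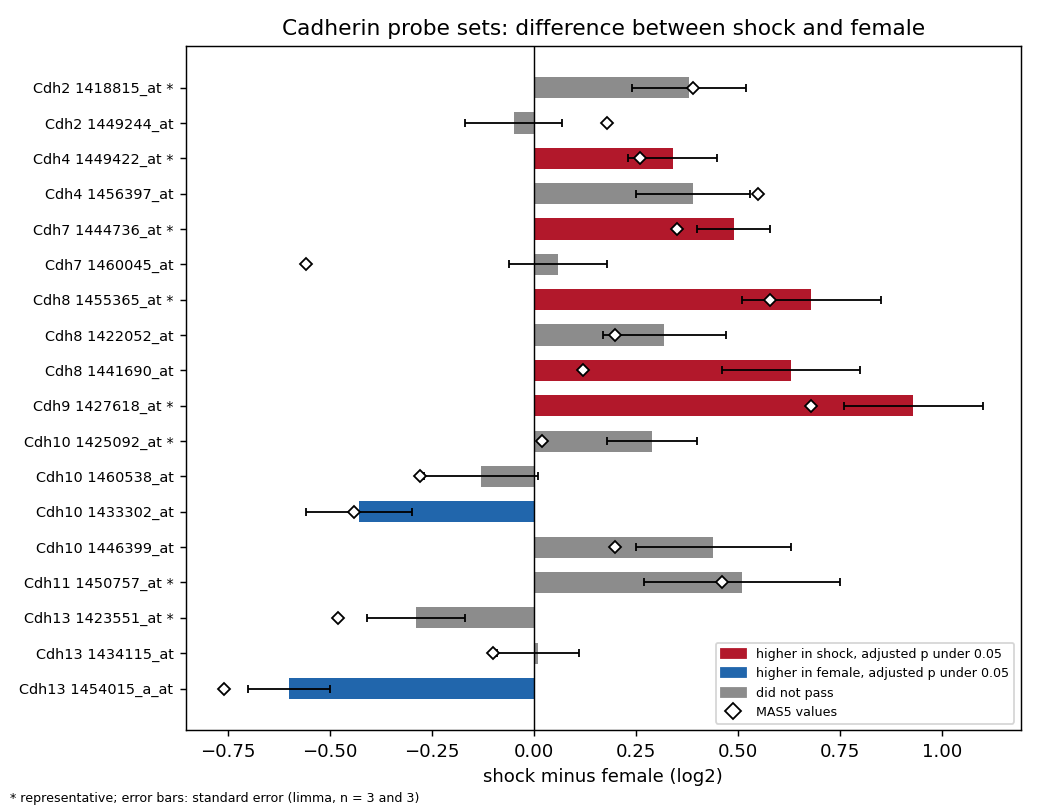
Difference between shock and female (log2) at each of 18 tested cadherin probe sets on RMA values, with the standard error from limma (3 arrays a group) and the difference on MAS5 values as open diamonds. Red bars, higher in shock, run from 0.34 for Cdh4 to 0.93 for Cdh9, and the blue bars, higher in female, are 1433302_at of Cdh10 at -0.43 and 1454015_a_at of Cdh13 at -0.60.

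By probe set, shock was higher at 5 of the 18 tested and female at 2, and 11 did not pass, against 9.31% and 11.5% of all probe sets tested. Here too the genes were picked with earlier results known, and the counts are a description. The groups did not overlap at 8 with shock above and 3 with female above, against 24.6% and 23.1%. More than 1 tested probe set was present for 6 genes, which gave 15 pairs. The ratio of the pair did not overlap between the groups in 10 of them, and pairs of a gene share probe sets. With 3 against 3 arrays, any pair without overlap has an exact permutation p of 0.1 (2-sided), the smallest possible. That p therefore adds nothing to the count of 10. Over all genes, 49.3% of 18250 pairs of tested probe sets of 1 gene did not overlap. For each gene the pair with the largest change is described without a test, since it was picked for that change. In Cdh10 the log2 value of 1446399_at minus that of 1433302_at was 0.08, -0.03 and 0.34 in shock and -0.42, -1.44 and -0.32 in female, a change of 0.86. In Cdh13 that of 1454015_a_at minus 1434115_at was -0.80, -0.77 and -0.90 in shock and -0.15, -0.23 and -0.27 in female, a change of -0.61. In both pairs the groups do not overlap, and the pair of Cdh10 includes the probe set on the opposite strand. In Cdh7, 1460045_at minus 1444736_at was -0.61, -0.21 and -0.39 in shock and 0.09, 0.05 and -0.07 in female, a change of -0.43. In Cdh2 the pair changed by -0.43 and in Cdh8, 1422052_at minus 1455365_at, by -0.36, both without overlap. The pair of Cdh4, 1456397_at minus 1449422_at, changed by 0.05 with overlapping groups, and the 3' pair of Cdh8, 1441690_at minus 1455365_at, by -0.04.

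**Figure D3:**
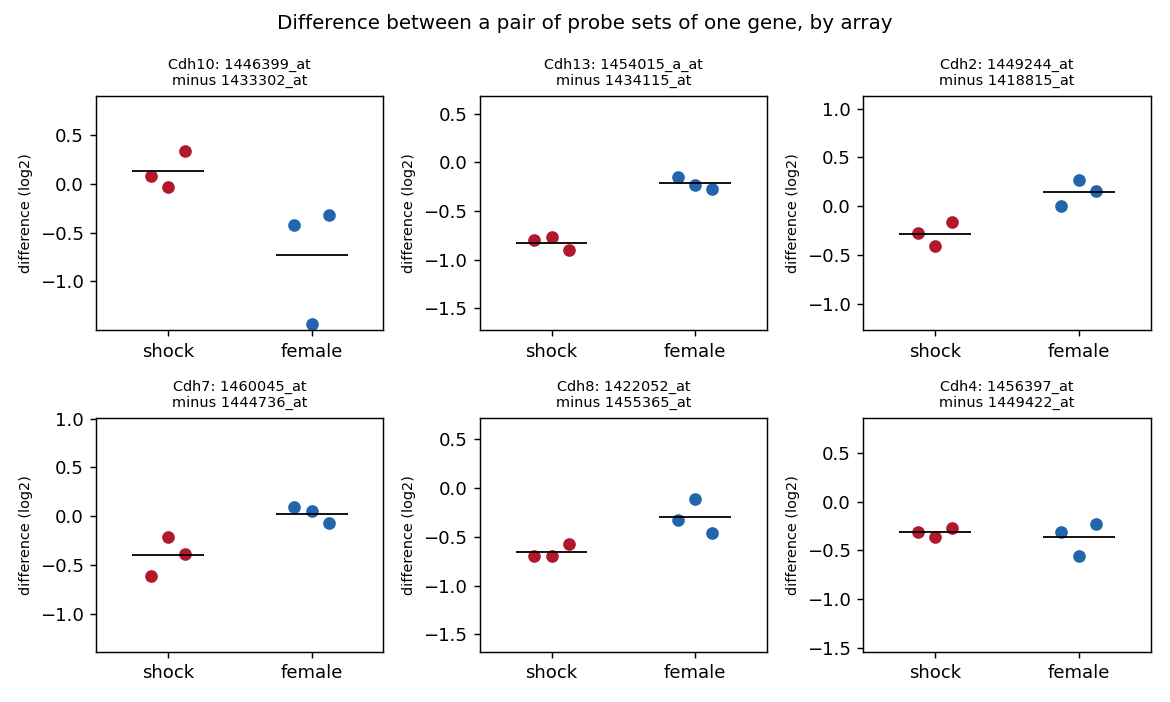
Log2 value of one probe set minus another of the same gene, by array, for the pair with the largest change in each of 6 cadherin genes, with the group mean as a line. The groups do not overlap in Cdh10 (change of 0.86), Cdh13 (-0.61), Cdh7 and Cdh2 (-0.43 each) and Cdh8 (-0.36), and overlap in Cdh4 (0.05).

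By the listed genomic position of their ends the probe sets differed as follows. Whether the probe sets of a gene measure the same transcript was not tested. On the strand of the gene, the tested probe sets that end farthest upstream were at 0.06 in Cdh7, -0.13 in Cdh10 and -0.60 in Cdh13. Those of Cdh8 and Cdh4 were at 0.32 and 0.34, the latter called higher in shock. Probe sets nearest the 3' end of Cdh7, Cdh8, Cdh4 and Cdh10 had differences of 0.39 to 0.63, but that of Cdh13 was at 0.01. The pair of Cdh2 is listed at the same positions and still changed by -0.43. The array-wide 5' to 3' signal, taken over 2785 genes as the median of upstream minus downstream probe set, was -1.02, -0.88 and -0.96 (log2) in shock and -0.76, -0.48 and -0.77 in female. With this signal as a covariate no cadherin passed (limma; 2 of 8 had an unadjusted p under 0.05), and 1 of all 27022 probe sets did. Of the covariate's variance, 0.658 is shared with the group, so this fit can separate signal and group only in part. No cause is read from it. In that fit the differences were 0.07 for Cdh8, 0.50 for Cdh9, 0.55 for Cdh7 and 0.33 for Cdh4. They were 0.05 for Cdh2, 0.08 for Cdh10 and -0.40 for Cdh11. For Cdh13 the difference was 0.02 at the representative and -0.47 at 1454015_a_at. None of these differences passed (adjusted p from 0.18 for Cdh7 to 0.979 for Cdh13).

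Genes whose profile over the 6 arrays lay closest to that of a called cadherin were found by the root mean square difference of log2 values, each centred on its own mean, among 11547 genes. For Cdh9 they were Chd1, Casp8ap2 and Prex2, at 0.096, 0.111 and 0.122. For Cdh8 they were Cpne8, Zfp763 and Etl4, at 0.039, 0.039 and 0.044. For Cdh7 they were Fras1, Smpdl3a and Ptpro, at 0.030, 0.046 and 0.049, and for Cdh4 Parp12, Nudt7 and Mkx, at 0.043, 0.044 and 0.048. No other cadherin was among them.

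Other cadherin genes were mostly too dim to test. Of 12 listed, 10 had a probe set, 4 were tested and none passed (limma; the smallest adjusted p was 0.057, and 1 had an unadjusted p under 0.05), a count too small to set apart from the 10.6% and 9.40% of all genes called. Cdh15, the cadherin of muscle and cerebellum, had a difference of -0.34, Cdh20 of -0.20, Cdh22 of 0.14 and Cdh3, P-cadherin, of 0.08. Their median was -0.06. The type II cadherins of the members had differences above 0 in all 5 tested, as 57.7% of all genes tested did, with 3 of them called and a median of 0.51. These 5 include Cdh9, picked with its difference known, and they do not stand for type II cadherins outside the members.

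Catenins bind the cadherin tail. None of 9 tested was higher in shock (limma; 0 at an unadjusted p under 0.05), female was higher for 2, and 7 did not pass. Of all genes tested 10.6% and 9.40% were called, and 9 genes are too few to set apart from these shares. A difference above 0 was found for 6 of the 9. The list's median was 0.12, against 0.06 over all genes tested. Jup, plakoglobin, had RMA values of 6.55, 6.65 and 6.63 in shock and 7.30, 7.56 and 7.16 in female. Its groups were far apart, with a difference of -0.73 ± 0.12 (standard error; limma adjusted p = 0.00679), lost without shock replicate 1 (adjusted p = 0.0531). Arvcf, a relative of p120-catenin, had a difference of -0.36 and an adjusted p of 0.0335. The neuronal α-catenin gene Ctnna2 had a difference of 0.22 (adjusted p = 0.127), the p120-catenin gene Ctnnd1 of 0.32 (0.143) and the β-catenin gene Ctnnb1 of 0.12 (0.372).

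Partners of the cadherin junction went both ways. Shock was higher for 3 of 15 tested and female for 2, the other 10 did not pass, against 10.6% and 9.40% of all genes tested, and they had a median of 0.19. Those higher in shock were the scaffold genes Magi2 (0.49, adjusted p = 0.0484) and Cask (0.46, adjusted p = 0.0451) and the α-actinin gene Actn1 (0.33, adjusted p = 0.0451). The nectin genes Pvrl1 and Pvrl2 were higher in female, at -0.45 and -0.40 (adjusted p = 0.0371 and 0.0405). With the 5' to 3' covariate Magi2 was at -0.03, Cask at 0.01, Actn1 at 0.35, Pvrl1 at -0.10 and Pvrl2 at -0.15. The vinculin gene Vcl had a difference of 0.38 and an adjusted p of 0.0645.

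Among enzymes and adaptors that cut, modify or internalise cadherins, shock was higher for 2 of 13 and female for 2, the other 9 did not pass, near the 10.6% and 9.40% of all genes tested, and the list had a median of 0.18. Adam10, the protease that sheds the outer part of N-cadherin, had RMA values of 11.03, 10.85 and 10.88 in shock and 10.72, 10.39 and 10.52 in female. All shock arrays lay above all female arrays, with a difference of 0.37 and a limma adjusted p of 0.0451, lost in 5 of 6 leave-one-out fits. Ptprb, a receptor phosphatase of vessels, was also higher in shock (0.42, adjusted p = 0.0448). The presenilin gene Psen2 (-0.50, adjusted p = 0.0323) and the protease gene Adam15 (-0.54, adjusted p = 0.0148) were higher in female. The 11 calls among catenins, junction partners and these genes all ended on MAS5 values (adjusted p from 0.0653 to 0.838) and with the 5' to 3' covariate, and each was lost in 1 to 5 of 6 leave-one-out fits. With no filter on dim probe sets 6 of the 11 were lost.

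**Figure D4:**
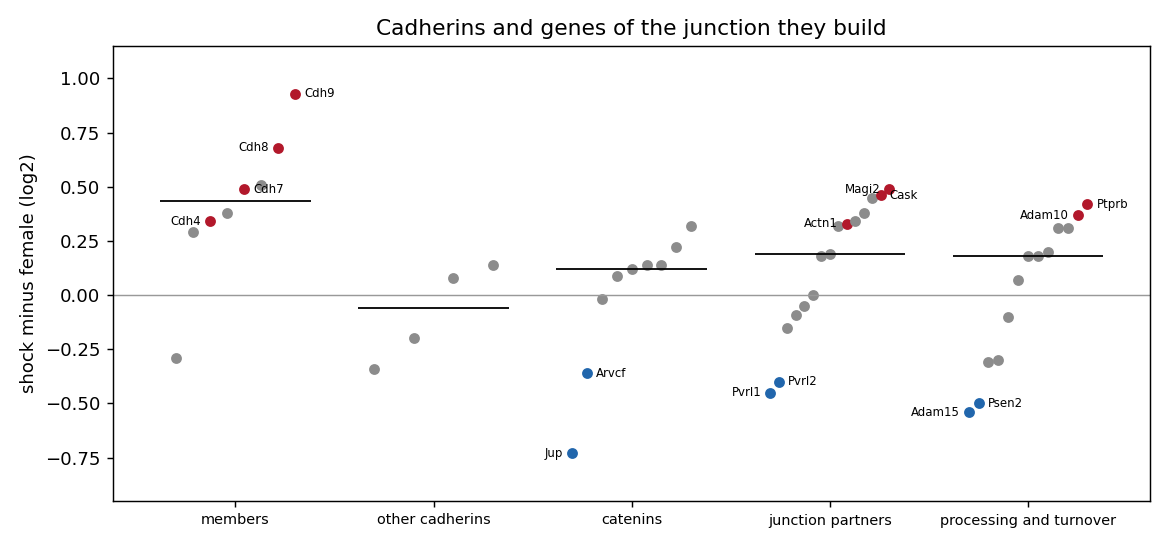
Difference between shock and female (log2) of the representative probe set of each tested gene among the cadherin members and in 4 lists of genes around them, with the list's median as a line and called genes in red (higher in shock) or blue (higher in female). The median is 0.43 for the members, -0.06 for other cadherins, 0.12 for catenins, 0.19 for junction partners and 0.18 for processing and turnover.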

How the data were processed

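Mouse amygdala RNA recovered with tagged PABPC1 was measured on 6 arrays. Each array was deposited as log2 RMA values and as linear MAS5 intensity, per the labels. The deposited comparison tables hold log2 averages of each group and, as score columns, a standard deviation for each group and a signed fold, negative for shock above female. They also hold a deposited p-value from ANOVA and its FDR, per the file headers. Software versions and MAS5 scaling are not given in the sources. No detection calls were used.

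Of 45101 probe sets, 64 controls were set apart. Symbols and positions are those of the deposited tables. Shock minus female was fitted on the RMA values with limma 3.58.1 in R 4.3.3 (lmFit, eBayes, group as the only term) over 27022 probe sets, those whose mean exceeded the 40th percentile. P-values were 2-sided and adjusted over all of these by Benjamini-Hochberg, at a threshold of 0.05. A gene was represented by its brightest probe set, an _x_at one only if no other. The steps were tested on simulated data. Every p not called exact or the authors' is from limma.

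The members and lists were chosen with earlier results of these data known. Named were all members with every probe set, of each list the called genes and up to 4 others with the smallest p (some left unnamed), and for each called member the 3 genes with the closest profile. Symbols of clones and predicted genes were left out of the last. Alternatives were MAS5 values as log2(value + 16) or log2(value + 1), no filter or a filter at the 60th percentile, arrays centred on their medians, weights for arrays, a block for the replicate number, a covariate for the 5' to 3' signal (probe sets 500 to 20000 bases apart, members left out), the probe set nearest the 3' end, the mean over a gene's probe sets, and leaving out each array. The number of arrays, 3 in each group, limits the precision.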

Additional observations from a re-analysis of the deposited data

How the results depend on the processing

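The number of cadherins called higher in shock, 4, was 0 on MAS5 values with either pseudocount and 0 with the 5' to 3' covariate (limma). In those fits 3, 3 and 2 of the 8 had an unadjusted p under 0.05 towards shock. It ran from 0 to 5 when 1 array was left out, and with shock replicate 1 left out, where it was 0, 6 had an unadjusted p under 0.05. It was 3 to 6 under the remaining alternatives, highest with array weights, where Cdh2 and Cdh10 were called as well. The number higher in female was 0 under every alternative run. Over all probe sets the count of 5614 was 543 and 277 on MAS5 values with pseudocounts of 16 and 1, 8752 with array weights, 1 with the covariate and 321 to 6756 when 1 array was left out. The cause of these changes was not tested, and the fits that left out 1 array also had fewer arrays.

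No called difference of a cadherin changed sign. Apart from Magi2, the differences whose sign turned had not passed. On MAS5 values with pseudocounts of 16 and 1, 1449244_at of Cdh2 was at 0.18 and 0.18, 1460045_at of Cdh7 at -0.56 and -0.60, 1434115_at of Cdh13 at -0.10 and -0.10, Cdh3 at -0.57 and -0.70 and Ctnnal1 at -0.20 and -0.21. With the covariate, 1422052_at of Cdh8 was at -0.05, 1446399_at of Cdh10 at -0.28, Cdh11 at -0.40, 1423551_at of Cdh13 at 0.02, Vcl at -0.02, Magi2, Lin7c and Rap1b at -0.03 each and Arhgap32 at 0.01. When 1 array was left out, 1449244_at ran from -0.13 to 0.02, 1460045_at from -0.03 to 0.17, 1434115_at from -0.04 to 0.04 and 1460538_at of Cdh10 from -0.24 to 0.0019. Cdh13 was at 0.01 with the probe set nearest the 3' end. With the mean over a gene's probe sets Cdh7 was at 0.28 (limma adjusted p = 0.0567).

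With the replicate block, 4 cadherins and 7120 probe sets were called. Same-numbered arrays deviated from their group means with correlations of 0.012, 0.207 and 0.154, and differently numbered ones with correlations from -0.211 to 0.124. So few correlations cannot decide whether the numbers pair the arrays, and the main fit took them as unpaired.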
